A study of Sus scrofa with 4 samples.

Results

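The liver-associated miRNAs miR-122, miR-192, miR-194 and miR-215 were followed through 4 small RNA libraries from exosomes of umbilical cord blood of newborn Yorkshire piglets. Members were taken by name: every row of the deposited tables called miR-122, miR-192, miR-194 (with a or b) or miR-215, on any arm and from any species' annotation. This gave 10 of 664 rows in all, or 10 of the 581 rows left when rows whose names begin with PC- and give no miRNA number were set aside. Because several rows hold the same sequence and split its reads equally, the 10 rows are 8 different sequences among 543.

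Exosomes are small vesicles that cells shed into body fluids, and miRNAs are short RNAs that repress messenger RNAs through their seed. The groups were growth-restricted piglets (IUGR, for restriction of growth in the uterus) and normal littermates, each sampled at birth from the umbilical artery, which carries fetal blood to the placenta, and from the umbilical vein, which carries placental blood to the fetus. The libraries were IUGR artery, normal artery, IUGR vein and normal vein, each from a pool of 3 piglets, so a condition had 1 library in each vessel and no replicate check. The sample labels name only the vessel, and the condition was read from the letters I and N of the table columns. Blood was drawn into EDTA, and vesicles were pelleted from filtered plasma in every group. The labels describe no sort of vesicles by cell of origin, and more vesicles of a source and more miRNA per vesicle cannot be told apart here.

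miR-122 is the dominant miRNA of hepatocytes, where it takes part in the control of lipid and cholesterol metabolism, and its release into blood is widely used as a sign of liver injury. miR-192, miR-194 and miR-215 are made in liver, gut and kidney epithelium, and their transcription in human cells responds to hepatocyte nuclear factors and to p53. In the RefSeq gene table of the pig (assembly Sscrofa 11.1), all 5 member genes were found. MIR194A and MIR192 are neighbours with no gene between them, as are MIR215 and MIR194B on another chromosome, while MIR122 lies next to NEDD4L, away from the other members.

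The sequences below are those of the deposited tables, 5′ to 3′, and show why some members can be told apart and others cannot. Capitals mark the seed, bases 2 to 8.
miR-122: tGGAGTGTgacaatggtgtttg
miR-122-3p: aACGCCATtatcacactaaat
miR-192/miR-215: aTGACCTAtgaattgacagcc
miR-215 long variant: aTGACCTAtgaattgacagccat
miR-194: tGTAACAGcaactccatgtgga
miR-194 5′ variant: aTGTAACAgcaactccatgtgga
The row named miR-192 and the row named miR-215 hold the same sequence. By the authors' row names it differs from the pig miR-192 reference by C1A and from the pig miR-215 reference by A20C, with positions counted from the 5′ end of the reference. Its reads therefore fit miR-192 and miR-215 equally well, and they are reported below as miR-192/miR-215. Both genes carry the same seed, TGACCTA, so the seed of these reads is known even where the gene is not. The sequence of miR-194 is likewise shared by miR-194a, which it matches up to a longer 3′ end, and miR-194b, from whose reference it differs by G10A. The row of the miR-194 5′ variant starts 1 base earlier, which moves its seed to TGTAACA. No row outside the members had one of these seeds, and the longest run of bases that another row shared with a member was 11, in 1 row.

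Depth set what could be seen of the low members. Outside PC- rows the tables held 12327 reads for IUGR artery, 7527 for normal artery, 7175 for IUGR vein and 35317 for normal vein. PC- rows took between 13.2 and 55.8% of all reads, so shares below are percentages of the reads outside them, with exact (Clopper-Pearson) 95% intervals. A count of 0 allows a share of up to 0.0243% in IUGR artery, 0.0399% in normal artery, 0.0418% in IUGR vein and 0.00849% in normal vein, where 3 counts are taken as the limit. IUGR artery stood apart from the other libraries, with 12.4% of its reads in erythroid miRNAs against 55.3 to 62.4% elsewhere, and the comparisons of IUGR vein with normal vein and of normal artery with normal vein do not use it. Reads were amplified without molecular identifiers, so intervals and limits cover counting error only.

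miR-122 was the most abundant sequence of IUGR artery, with 2612 reads. Its share was 21.2% (20.5 to 21.9%) in IUGR artery, 1.77% (1.48 to 2.09%) in normal artery, 1.90% (1.59 to 2.24%) in IUGR vein and 0.127% (0.0930 to 0.170%) in normal vein. It ranked 1, 8, 7 and 67 among the sequences of these libraries in the same order. The libraries thus stood at 3 levels, with IUGR artery highest, normal vein lowest, and normal artery and IUGR vein between them with overlapping intervals. The order of those middle 2 turned with the denominator. Of all reads, PC- rows included, miR-122 was 0.839% in IUGR vein and 0.967% in normal artery.

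miR-122-3p, the strand opposite to miR-122 in the hairpin and normally the one discarded, had 73 reads in IUGR artery, 1 in normal artery, 3 in IUGR vein and 0 in normal vein. Its share was 0.592% (0.464 to 0.744%) in IUGR artery, 0.0133% (0.000336 to 0.0740%) in normal artery and 0.0418% (0.00862 to 0.122%) in IUGR vein. In normal vein the count of 0 allows up to 0.00849%.

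miR-192/miR-215 had 972 reads in IUGR artery, 44 in normal artery, 46 in IUGR vein and 22 in normal vein. The shares were 7.89% (7.42 to 8.37%), 0.585% (0.425 to 0.784%), 0.641% (0.470 to 0.854%) and 0.0623% (0.0390 to 0.0943%) in that order. The order and the 3 levels were those of miR-122. The miR-215 long variant, which is named after the opossum miRNA, begins with the same 21 bases and ends 2 bases later. By its row name it too differs from the miR-215 reference by A20C, and which gene it comes from was not tested. It had 29 reads in IUGR artery, 2 in normal artery and none in either vein library.

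miR-194 had 349 reads in IUGR artery, 19 in normal artery, 4 in IUGR vein and 6 in normal vein, or 2.83% (2.55 to 3.14%), 0.252% (0.152 to 0.394%), 0.0558% (0.0152 to 0.143%) and 0.0170% (0.00623 to 0.0370%). Here IUGR vein lay below normal artery with intervals that did not overlap, and its interval overlapped that of normal vein. The remaining members were at the edge of detection. The miR-194 5′ variant had 2 reads and a 3′ extended miR-194 row had 1, all in IUGR artery, and miR-192-3p, the opposite strand of miR-192, had 1 read, in IUGR vein.

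Together the members made up 32.8% (31.9 to 33.6%) of reads in IUGR artery, 2.64% (2.29 to 3.03%) in normal artery, 2.65% (2.29 to 3.05%) in IUGR vein and 0.207% (0.162 to 0.260%) in normal vein. These sums rested on 4038, 199, 190 and 73 reads.

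**Figure D1:**
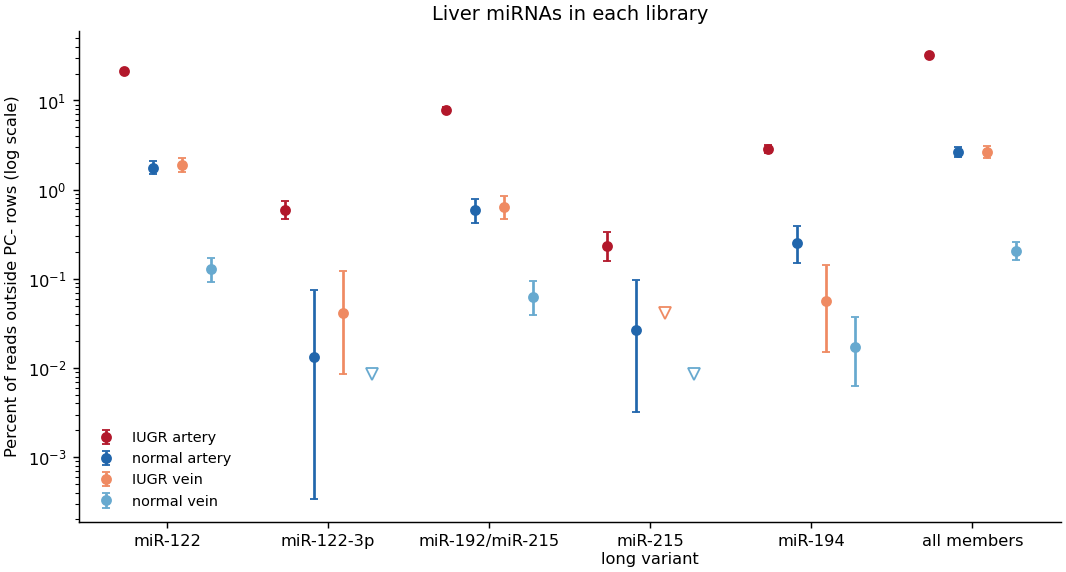
Share of reads outside PC- rows (percent, log scale) for each liver miRNA and their sum, with 1 point per library and exact 95% counting intervals; open triangles mark the limit that a count of 0 allows. IUGR artery lies highest for every member drawn, and normal artery and IUGR vein lie close together for miR-122 and miR-192/miR-215 but not for miR-194.

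The proportions among members do not depend on what else a library holds. For every 100 reads of miR-122, miR-192 plus miR-215 with its long variant gave 38.3 reads (35.6 to 41.2) in IUGR artery, 34.6 (24.2 to 48.7) in normal artery, 33.8 (23.7 to 47.6) in IUGR vein and 48.9 (28.0 to 83.1) in normal vein. All 4 intervals overlapped, although the share of miR-122 itself differed widely between these libraries.

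For miR-194 with its variants, the proportion was 13.5 reads per 100 of miR-122 (12.0 to 15.1) in IUGR artery, 14.3 (8.34 to 23.2) in normal artery, 2.94 (0.790 to 7.70) in IUGR vein and 13.3 (4.65 to 31.4) in normal vein. IUGR vein stood apart from both artery libraries, whose intervals lay above its own, but its interval overlapped that of normal vein. Set against miR-192 plus miR-215 in place of miR-122, miR-194 gave 35.2 reads per 100 (31.1 to 39.7) in IUGR artery, 41.3 (22.9 to 71.9) in normal artery, 8.70 (2.27 to 23.8) in IUGR vein and 27.3 (9.05 to 69.4) in normal vein. With this denominator the interval of IUGR vein overlapped that of normal artery and lay below that of IUGR artery. The low value rests on the 4 miR-194 reads of IUGR vein and has no replicate.

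For miR-122-3p, the proportion was 2.79 reads per 100 of miR-122 (2.18 to 3.53) in IUGR artery, 0.752 (0.0189 to 4.26) in normal artery and 2.21 (0.449 to 6.58) in IUGR vein. In normal vein it was 0, with an upper bound of 8.54. The intervals overlapped in all 4 libraries, so a difference in strand balance was not detectable at this depth.

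**Figure D2:**
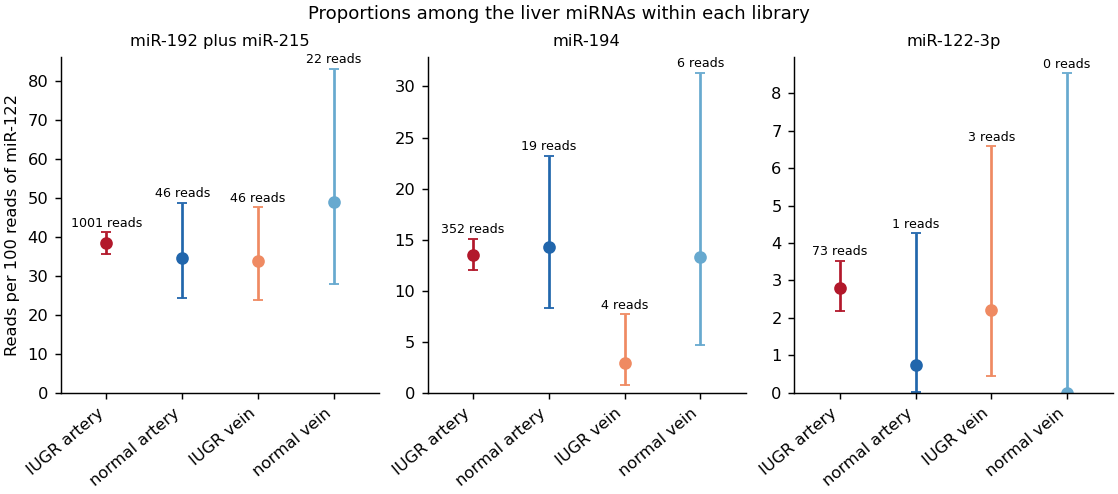
Reads of miR-192 plus miR-215, of miR-194 and of miR-122-3p per 100 reads of miR-122 (y axes from 0, a separate scale in each panel) in the 4 libraries, with exact 95% counting intervals and the reads behind each point. The proportion of miR-192 plus miR-215 stays between 33.8 and 48.9, while that of miR-194 is 2.94 in IUGR vein and between 13.3 and 14.3 elsewhere.

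The first comparison asked how IUGR and normal piglets differ in the umbilical vein. Each ratio is a ratio of shares with 0.5 reads added, and its interval is an exact conditional binomial 95% interval on reads. miR-122 was 14.8-fold higher in IUGR vein, at 1.90% against 0.127% in normal vein, a log2 ratio of 3.88 (3.40 to 4.41). miR-192/miR-215 was 10.2-fold higher, at 0.641% against 0.0623%, a log2 ratio of 3.35 (2.60 to 4.17). These were the highest 2 of 147 sequences with at least 10 reads over the vein libraries, whose median log2 ratio was 0.09. miR-194 was at 0.0558% in IUGR vein and 0.0170% in normal vein, a log2 ratio of 1.77 (-0.55 to 3.79) that includes 0 in its interval. All 3 members with enough reads were at least 2-fold higher, as were 23.8% of all sequences. For miR-194 this was lost with shares of all reads, where its log2 ratio was 0.80, and with the authors' normalized columns, where it was 0.77, so that 2 of the 3 then passed. Sequences at least 2-fold higher numbered 35 of the 147, and 10 under either of those settings.

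In the umbilical artery, miR-122 was 11.9-fold higher in IUGR, at 21.2% against 1.77% in normal artery, a log2 ratio of 3.58 (3.33 to 3.85). miR-192/miR-215 was 13.3-fold higher, with a log2 ratio of 3.74 (3.32 to 4.22), and miR-194 10.9-fold, with a log2 ratio of 3.45 (2.82 to 4.24). miR-122-3p, with 73 reads against 1, had a log2 ratio of 4.90 (2.95 to 10.80), and the miR-215 long variant, with 29 reads against 2, one of 2.85 (1.16 to 6.26). These last 2 reached the minimum of 10 reads only through IUGR artery, so their direction was fixed by that minimum. Of 124 sequences, 39.5% were at least 2-fold higher, and the median log2 ratio was 0.25. Many sequences passed 2-fold in artery, but few rose as far as these members. By log2 ratio miR-192/miR-215 ranked 8, miR-122 10 and miR-194 11 among the 124.

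For the members summed, the log2 ratio of IUGR over normal was 3.67 (3.28 to 4.09) in vein and 3.63 (3.43 to 3.84) in artery, from libraries that are not shared between the vessels. The piglets pooled for a condition may be the same in both vessels, so the 2 values are not independent samples of IUGR.

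Artery was then set against vein within each condition, which uses the same 4 libraries again. In normal piglets, miR-122 was 13.8-fold higher in artery than in vein, with a log2 ratio of 3.78 (3.30 to 4.31), miR-192/miR-215 9.28-fold with 3.21 (2.46 to 4.04), and miR-194 14.1-fold with 3.82 (2.51 to 5.51). miR-194, with 19 reads against 6, reached the minimum only through artery, which fixed its direction. Of 149 sequences, 30.2% were at least 2-fold higher and 12.1% as far lower, and miR-194, miR-122 and miR-192/miR-215 ranked 3, 4 and 5.

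In IUGR piglets, miR-122 was 11.1-fold higher in artery than in vein, with a log2 ratio of 3.48 (3.23 to 3.74), and miR-192/miR-215 12.2-fold with 3.61 (3.19 to 4.08). miR-194 was 45.2-fold higher, at 349 reads in artery against 4 in vein, with a log2 ratio of 5.50 (4.30 to 7.55), whose interval lay above those of miR-122 and miR-192/miR-215. miR-122-3p had a log2 ratio of 3.61 (2.22 to 6.13). The miR-215 long variant, with no read in IUGR vein, was at least 5.63-fold higher in artery against the limit of 3 counts. miR-194, miR-122-3p and the miR-215 long variant reached the minimum of 10 reads only through IUGR artery, which fixed their direction. Of 119 sequences, 38.7% were at least 2-fold higher and 37.8% as far lower, and miR-192/miR-215 and miR-122 ranked 19 and 21.

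**Figure D3:**
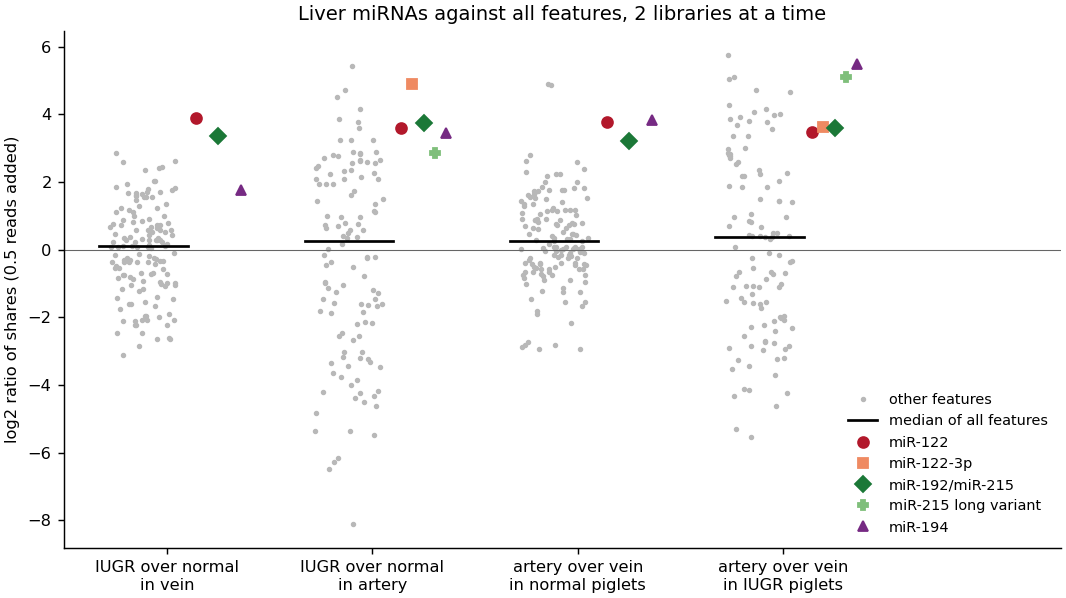
log2 ratios of shares in the 4 comparisons of 2 libraries, with each sequence of at least 10 reads as a grey point, the median of all sequences as a bar and the liver miRNAs as coloured symbols. The liver miRNAs drawn lie above 0 in all 4 comparisons; miR-122 and miR-192/miR-215 rank 1 and 2 in the vein comparison, where miR-194 ranks 15 of 147, and they lie among many other high sequences in the IUGR artery comparisons.

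Over all 4 libraries, with 2 of each vessel, artery was tested against vein by edgeR's quasi-likelihood test on reads. The spread within a vessel then includes the difference between IUGR and normal. No member passed the adjusted p threshold of 0.05, and neither did any other sequence: 0.0% of 144 were called higher and 0.0% lower, with 10 at an unadjusted p under 0.05. The shares of miR-122 overlapped between the vessels, since IUGR vein, at 1.90%, lay above normal artery, at 1.77%; of all reads, both artery shares lay above both vein shares. Its log2 fold of artery over vein was 3.37 (SE 1.86), with a Benjamini-Hochberg adjusted p of 0.576 by edgeR. For miR-194, whose artery shares both lay above its vein shares, the log2 fold was 5.31 (SE 1.78), with an edgeR adjusted p of 0.555. DESeq2 called 1 sequence of the 144, and it was miR-194, with a log2 fold of 5.71 and a DESeq2 adjusted p of 0.0109. miR-194 reached the minimum of 20 reads for these fits only through the artery libraries, which fixed its direction. Over all settings tried for miR-194, by edgeR and DESeq2, the adjusted p ranged between 0.0109 and 0.998.

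The log2 folds of that fit depended on which artery library was kept. Without normal artery, IUGR artery stood alone against 2 vein libraries, and the fit assumes that it varies as they do. The log2 fold of artery over vein was then 4.32 for miR-122, 4.45 for miR-192/miR-215 and 6.37 for miR-194. It was 5.47 for miR-122-3p and 8.28 for the miR-215 long variant. miR-194, miR-122-3p and the miR-215 long variant reached the minimum of 20 reads only through IUGR artery, which fixed their direction. Without IUGR artery, the log2 fold of miR-122 was 0.66 and that of miR-194 2.85. Each of these fits leaves an artery library alone, so calls from them are not given.

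Other lists of miRNAs also differed between the libraries, some of them opposite to the liver members, and their part in the results above was not tested. Erythroid miRNAs, led by miR-451 of red blood cells, made up 12.4% (11.8 to 13.0%) of reads in IUGR artery, 55.3% in normal artery, 59.0% in IUGR vein and 62.4% in normal vein. In IUGR artery against normal artery, 9 of 11 erythroid sequences were at least 2-fold lower and 1 higher, where 40.3% of all were lower, and 3 of the 11 had reached the minimum of 10 reads only through the library where they were higher. In IUGR vein against normal vein 5 of 13 were at least 2-fold lower and 1 higher, where 23.1% of all were lower, and 4 of the 13 had passed in that way. With shares of all reads, 10 of the 13 were at least 2-fold lower in vein, as were 68 of all 147 sequences. The liver share kept its order of levels without the erythroid reads: it was then 37.4% in IUGR artery, 5.92% in normal artery, 6.46% in IUGR vein and 0.549% in normal vein. The platelet and myeloid list, led by miR-191 and miR-21, had 2.18% in IUGR artery, 7.96% in normal artery, 5.47% in IUGR vein and 9.81% in normal vein.

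**Figure D4:**
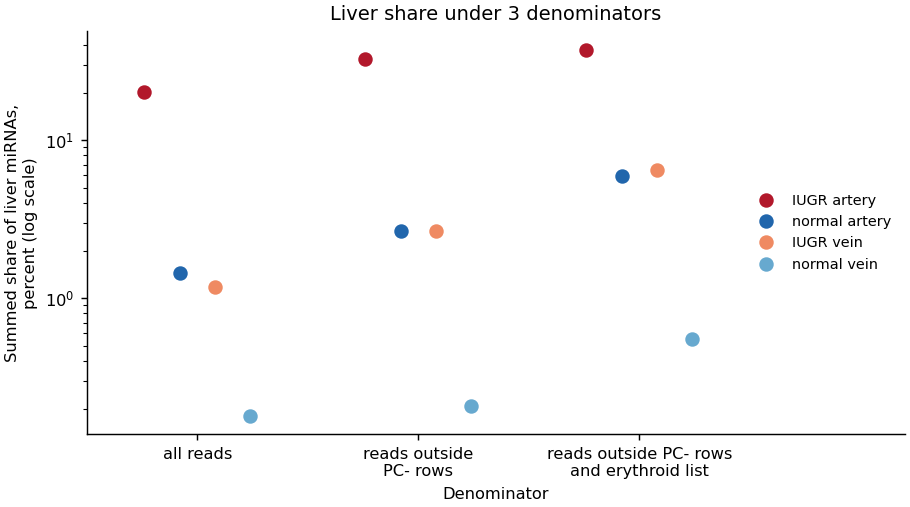
Summed share of the liver miRNAs (percent, log scale) in each library under 3 denominators: all reads, reads outside PC- rows, and reads outside PC- rows and the erythroid list. IUGR artery is highest and normal vein lowest in each; IUGR vein is below normal artery in the first, at 1.17 against 1.45%, and above it in the last.

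Markers of the epithelium of gut, kidney and pancreas, tissues that include other sources of miR-192, miR-194 and miR-215, were rare in every library. They summed to 0.754% (0.609 to 0.923%) in IUGR artery, 0.0797% in normal artery, 0.112% in IUGR vein and 0.00849% in normal vein. The leading sequence, miR-200a, a repressor of ZEB1 and ZEB2 in epithelial cells, had 35 reads in IUGR artery, 0 in normal artery, 1 in IUGR vein and 0 in normal vein. miR-200b had 17, 1, 2 and 1 reads in that order. The list had 8 of its 11 names detected, with no read of miR-141, miR-196a or miR-196b. Of its 4 sequences with enough reads in artery, 3 had them only through IUGR artery, so no count of higher sequences is given. The endothelial list, led by miR-100 and by miR-126 of vascular endothelium, had 7.85% in IUGR artery, 1.61% in normal artery, 2.54% in IUGR vein and 1.15% in normal vein. Of its 6 sequences, 5 were at least 2-fold higher in IUGR in each vessel, where 23.8% of all sequences were in vein and 39.5% in artery. In each vessel 1 of the 6 had reached the minimum of reads only through the library where it was higher. With shares of all reads, the vein count was 1 higher and 1 lower, where 10 of all 147 sequences were higher and 68 lower. The artery count was again 5 higher, where 51 of all 124 sequences were.

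Other miRNAs that are abundant in liver, but also outside it, spanned a smaller range than the members. As a list they made up 6.35% (5.92 to 6.79%) in IUGR artery, 2.19% in normal artery, 3.06% in IUGR vein and 2.44% in normal vein, with all 6 names detected. miR-148a-3p, with the most reads of them over the 4 libraries together, had 1.15% in IUGR artery, 1.02% in normal artery, 1.90% in IUGR vein and 1.62% in normal vein. miR-22-3p had 3.85% in IUGR artery, 0.810% in normal artery, 0.753% in IUGR vein and 0.614% in normal vein. In IUGR artery against normal artery, 3 of the list's 4 sequences were at least 2-fold higher, where 39.5% of all were, with a median log2 ratio of 1.62 against 0.25 for all sequences. Both arms of miR-22 were among these 3, miR-22-3p at 2.24 and miR-22-5p at 1.00. Among the 4, 1 had reached the minimum only through IUGR artery. In IUGR vein against normal vein, 1 of 4 was at least 2-fold higher, where 23.8% of all were. The median log2 ratio was 0.33 there, against 0.09 for all sequences. With shares of all reads the vein count was 0 higher, where 10 of all 147 sequences were. The muscle list, led by miR-143 of smooth muscle, had its highest share in IUGR vein, at 4.58%, with 2.36% in IUGR artery, 1.58% in normal artery and 1.86% in normal vein.

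**Figure D5:**
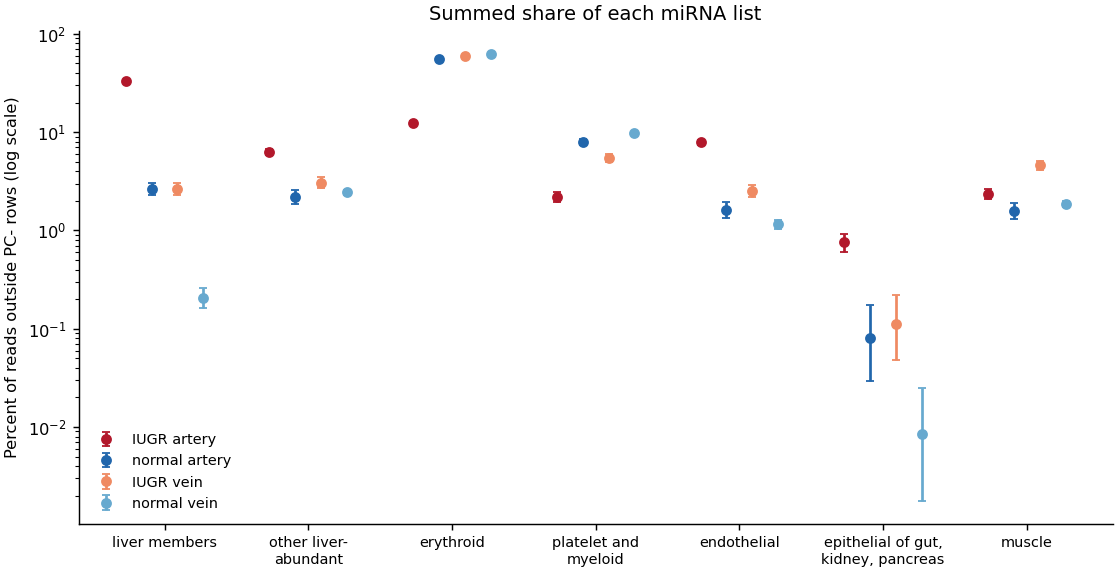
Summed share of reads outside PC- rows (percent, log scale) for the liver members and 6 other miRNA lists in each library, with exact 95% counting intervals. The liver, epithelial and endothelial lists are highest in IUGR artery and lowest in normal vein, while the erythroid list is lowest in IUGR artery, at 12.4%.

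Likeness to miR-122 was measured as the distance between log2 shares over the 4 libraries, each centred on its own mean, for 144 sequences with at least 20 reads in all. The median distance was 5.66. miR-192/miR-215 lay nearest, at 0.45, miR-122-3p at 1.28, the miR-215 long variant at 1.72 and miR-194 at 1.82. Outside the members, the nearest was a platypus-named row, miR-16c-5p, at 0.59, with 33 reads in IUGR artery, 1 in normal artery, 2 in IUGR vein and 0 in normal vein. The pig-named row of miR-16 lay far from miR-122, at 5.93. An opossum-named end variant of miR-210-3p, the hypoxia-induced miRNA, lay at 1.39, with 21 reads in IUGR artery and none elsewhere. The pig-named row of miR-210 was found in every library and lay farther, at 2.77. It had 34 reads in IUGR artery, 9 in normal artery, 5 in IUGR vein and 8 in normal vein. miR-30e-5p lay at 1.40, with 6.38% in IUGR artery, 0.518% in normal artery, 0.321% in IUGR vein and 0.0849% in normal vein. A variant of let-7a-5p at 1.44 and miR-222 at 1.44 followed. From the epithelial list, miR-200a lay at 1.45 and miR-200b at 1.70, both nearer than the miR-215 long variant and miR-194. With 4 libraries these distances describe the samples at hand, and the rows with few reads owe part of their place to the 0.5 reads added.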

How the data were processed

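Per the labels' protocols, a kit for small RNA (TruSeq) was used on exosomal RNA pooled from 3 piglets per library, and reads of 36 bases were taken from a single end. The submitters' processing notes name the pig build Sscrofa 10.2, while aligner and counter were not given in the sources used here. As deposited by the authors, the data are 4 tables of 2 libraries each. Per the file headers, raw columns give estimated counts, with reads split between rows of equal sequence. Their normalized columns hold a signal equal to the deposited raw reads times 1 factor per library (3.18 in IUGR artery, 5.89 in normal artery, 4.70 in IUGR vein, 1.90 in normal vein). 4 normalized columns that repeat others, and the authors' fold and p-value columns, were not used.

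Rows were joined by name and sequence, with absent rows taken as 0, and rows of equal sequence were summed. Shares, exact intervals and ratios were computed with scipy 1.17.1. Ratios of 2 libraries used sequences with at least 10 summed reads. edgeR 4.0.16 (quasi-likelihood, TMM, limma 3.58.1, R 4.3.3) was run on counts rounded to whole numbers, at least 20 summed reads, with Benjamini-Hochberg adjustment over all sequences tested; DESeq2 1.42.0 was an alternative. The labels' numbers could not be tied to columns. Column letters pair the vessels by condition, and libraries of a pair deviated together (r = 0.64 over 144 sequences). The pool was therefore an alternative block. Pool and condition coincide here, so this block is also the condition and r cannot separate them. The p-values set the vessel difference against the spread between these pooled libraries, which includes condition, and not against the spread between single piglets. Named miRNAs were all members, the 2 leading sequences of each list and the 5 profiles nearest to miR-122. The pig-named rows of miR-16 and miR-210 and the other arm of miR-22 were named beside them. Members and lists were chosen with earlier results of these data known.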

Additional observations from a re-analysis of the deposited data

How the results depend on the processing

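For the members together and for each member with at least 10 reads, all 158 alternative log2 ratios stayed above 0, over 20 ratios, but miR-194 in vein was below 2-fold with shares of all reads (0.80) and with the authors' columns (0.77). For the members summed, IUGR over normal in vein was 2.70 with shares of all reads, 2.68 with the authors' normalized columns and 3.04 with median ratio scaling, against 3.67. In artery it was 2.66 without the erythroid list and 3.97 with median ratio scaling, against 3.63. Artery over vein in normal piglets was 3.01, 3.07 and 2.97 with shares of all reads, the authors' columns and median ratio scaling, against 3.67. In IUGR piglets it was 4.09 with shares of all reads, 2.53 without the erythroid list and 3.91 with median ratio scaling, against 3.63. The summed share was 20.05% of all reads in IUGR artery, 1.45% in normal artery and 1.17% in IUGR vein, and 37.4, 5.92, 6.46 and 0.549% without the erythroid list, normal vein last. These alternatives change the denominator, and with them the background. The vein median of 0.09 became -0.90 with the authors' columns. There, higher and lower sequences numbered 35 and 34, but 10 and 68 with shares of all reads, 10 and 68 with the authors' columns and 21 and 52 with median ratio scaling. For artery over vein in normal piglets, 45 and 18 became 24 and 46, 26 and 45, and 24 and 47 in that order of settings. With a minimum of 1 read the counts were 119 higher in vein, 84 and 205 in artery, 192 and 31 between normal vessels and 82 and 146 between IUGR vessels. With a minimum of 50 reads they were 15 and 16, 26 and 22, 14 and 11, and 27 and 16, since fewer sequences were counted. Leaving out rows named miR-3168, a choice made after the data were seen, and leaving out end variants moved no member ratio past its interval. In the 4-library fit of artery over vein, DESeq2 called 1 higher, and leaving out 1 library gave 0 to 20 higher and 0 to 7 lower; the other settings gave 0. With the pool as a replicate block, edgeR called 0 sequences, and the adjusted p of miR-122 was 0.216 and that of miR-194 0.216, so the block changed no call. Low counts of some members limit the vein comparison, although normal vein was the deepest library, with 35317 reads outside PC- rows against 7175 in IUGR vein. miR-194 had 4 reads in IUGR vein and 6 in normal vein, and miR-122-3p, the miR-215 long variant and miR-192-3p had too few for a comparison there.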
